A study of Mus musculus with 6 samples.

Results

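The genes examined here are 8 markers of mast cells. They were Cpa3, Cma1, Mcpt4, Tpsb2 and Tpsab1, which encode granule proteases, Fcer1a and Ms4a2, which encode chains of the high affinity IgE receptor, and Kit, the receptor for stem cell factor. They were taken by name, as the probe sets whose single gene symbol in the platform annotation was one of the 8. That gave 11 of 45037 probe sets other than controls, and 8 of 18193 genes with a symbol of their own. Tpsb2, Kit and Ms4a2 had a pair of probe sets each, and the probe set with the higher mean stood for the gene.

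Mast cells are tissue-resident cells of the haematopoietic lineage that store histamine, heparin-bound proteases and other mediators in granules and release them when IgE on their surface is crosslinked. They depend on Kit signalling, and in the brain they lie in the meninges, the stroma of the choroid plexus and along vessels of the thalamus and habenula. Mouse connective tissue mast cells are known for carboxypeptidase A3 (Cpa3), the chymases encoded by Mcpt4 and Cma1, and the tryptase encoded by Tpsb2. They do not need antigen receptor rearrangement to develop.

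RNA was measured in choroid plexus epithelium taken from the whole brain of B10.PL mice, on 6 single-colour arrays. By the sample descriptions 3 arrays were wild type (WT) and 3 were RAG-/-, a genotype in which T and B cells do not mature. Whether Rag1 or Rag2 was disrupted is not stated in the labels, nor are age, sex or the number of animals per preparation. A code in the titles joins 1 array of each genotype, which gives pairs 1, 2 and 3. In pair 1 the descriptions say that the samples had been reversed, and the titles give the opposite genotypes. Each comparison was therefore made by description and again by title. Arrays are named by their genotype in the description. Nothing says that the preparations came from separate animals, so the p-values speak only for the scatter among these 6 samples, part or all of which could be technical.

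The tissue label went with the choroid plexus epithelium markers, of which 9 of 9 measured were above background on all 6 arrays. Genes of other brain cells were present too: of 6 measured oligodendrocyte markers 5 were above background on all arrays, and all 6 had higher means in RAG-/- by description (median 1.12) and by title (median 1.30), with 0 past the threshold in limma. Median deposited intensities lay between 77.8 and 97.1 per array, and the small number of arrays limits the precision. RAG-/- replicate 2 stood apart, at 106 on the first principal component against -69.3 to 31.2 for the others. Rag1 was dim and was not lower in RAG-/- arrays, at 5.94 ± 1.20 against 5.02 ± 1.32 on the log2 scale (SD, n = 3). By title the values parted, at 6.59 ± 0.31 in the libraries titled RAG and 4.37 ± 0.22 in those titled B10 (SD, n = 3; exact permutation p = 0.1, two-sided, the smallest that 3 against 3 arrays allow). Rag1 was thus not lower in the RAG-/- libraries in either reading. Rag2, above background on 1 array, was at 5.47 ± 0.56 in RAG-/- and 5.42 ± 1.49 in WT by description (SD, n = 3). By title it was at 5.11 ± 0.79 in RAG and 5.79 ± 1.25 in B10 (SD, n = 3), and the groups overlapped in both readings. Of 10 measured T and B cell markers, 6, among them Cd3e and Cd79a, were below background on all arrays of both genotypes. Cd8a and Ighm were above it on all 6 arrays, Jchain on 3 and Ms4a1 on 1, and Ighm was highest, at 11.27, in RAG-/- replicate 2. As the labels do not name the disrupted gene or the deleted part, the Rag1 and Rag2 probe sets cannot check them. Every direction given here rests on the labels alone.

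Most of the mast cell genes could not be told from background in this tissue. Values are log2(intensity + 16), quantile normalized across arrays. The background line of an array was the 95th percentile of its 43 probe sets for olfactory receptors, genes that the choroid plexus is not known for, and it lay between 6.23 and 6.72. Between 65.9% and 74.0% of all genes lay above it. Of the 48 values of 8 genes on 6 arrays, 15 lay above the line, and 6 of those belonged to Kit. The number of genes above the line was 4 in WT replicate 1, 3 each in RAG-/- replicate 1, WT replicate 3 and RAG-/- replicate 3, and 1 each in WT replicate 2 and RAG-/- replicate 2. The mast cell genes were thus fewest above background on both arrays of pair 2.

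**Figure D1:**
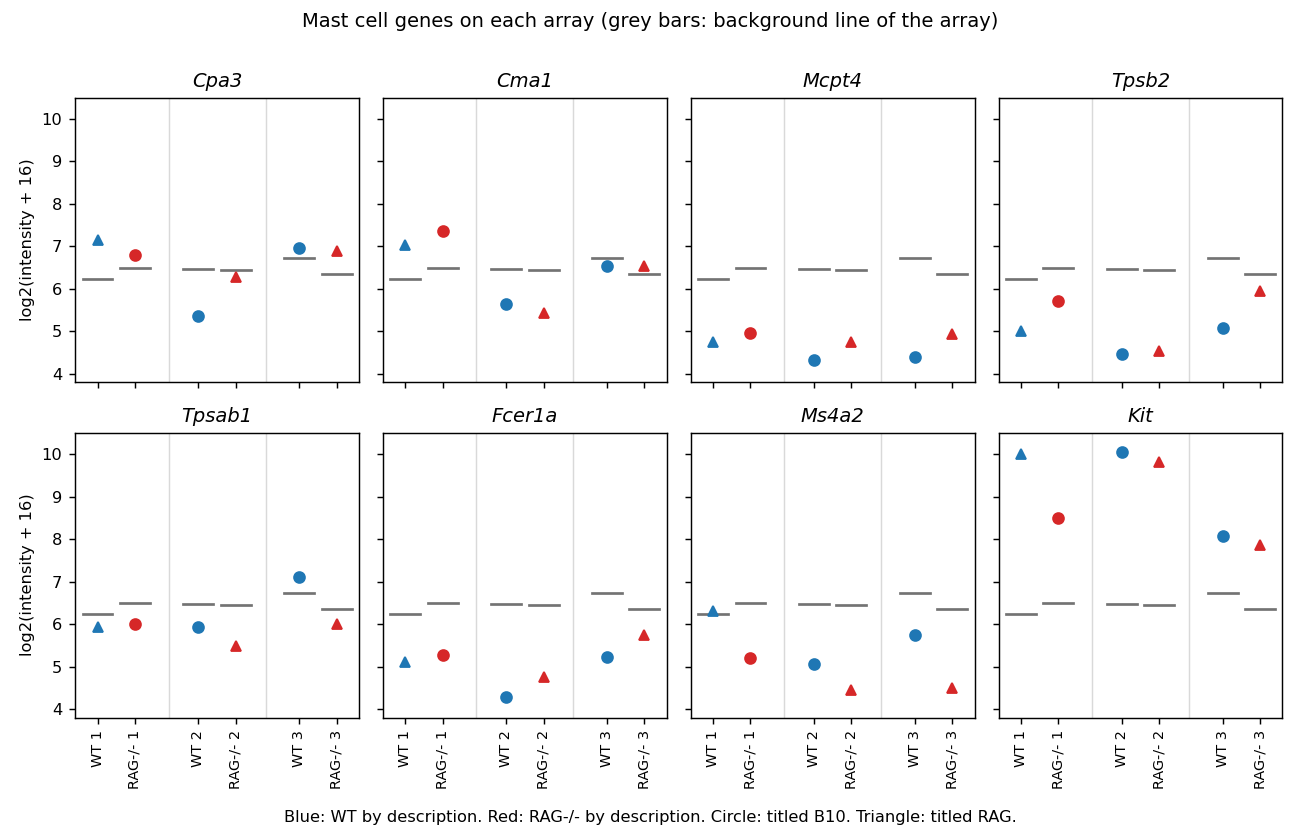
Each panel plots the log2(intensity + 16) of 1 mast cell gene on the 6 arrays, in pairs 1, 2 and 3 from left to right, with the background line of each array as a grey bar. Kit lies above the line on all 6 arrays, Cpa3 on 4 and Cma1 on 3, while Mcpt4, Tpsb2 and Fcer1a lie below it throughout.

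Among the proteases, Cpa3 encodes the carboxypeptidase of mast cell granules. It was at 7.16, 5.36 and 6.97 in WT replicates 1, 2 and 3 and at 6.80, 6.28 and 6.89 in RAG-/- replicates 1, 2 and 3. It was above the line on the 4 arrays of pairs 1 and 3 and below it on both arrays of pair 2, and the genotypes overlapped. The difference, RAG-/- minus WT, was 0.16 (SE 0.51, 95% interval -1.01 to 1.34), from 6.49 ± 0.99 to 6.66 ± 0.33 (SD, n = 3; limma adjusted p = 1). The pairs disagreed in direction, with -0.36, 0.92 and -0.07 in pairs 1, 2 and 3.

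Cma1 encodes the mast cell protease also called Mcpt5. It was at 7.03, 5.65 and 6.54 in WT replicates 1, 2 and 3 and at 7.36, 5.44 and 6.55 in RAG-/- replicates 1, 2 and 3. Both arrays of pair 1 were high, both of pair 2 were low and both of pair 3 were close to the line, with RAG-/- replicate 3 above it and WT replicate 3 below. Differences within pairs were 0.34, -0.21 and 0.01. Their mean was 0.05 (SE 0.56, 95% interval -1.25 to 1.34; limma adjusted p = 1), and with the pair as a block the interval was -0.69 to 0.79. Differences between pairs held 97.2% of the sum of squares of Cma1, against a median of 64% over the 13537 genes that passed the filter on dim probe sets. The share was 77.8% for Cpa3, 77.5% for Kit and 51.9% for Tpsab1, all below the 75th percentile of those genes, 82.5%.

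The chymase gene Mcpt4 gave no signal above background. It was at 4.75, 4.33 and 4.41 in WT replicates 1, 2 and 3 and at 4.96, 4.75 and 4.95 in RAG-/- replicates 1, 2 and 3, well under the line on every array. WT replicate 1 and RAG-/- replicate 2 were equal to 2 decimals. Before rounding, by description, it was the only member with no overlap of the genotypes, the RAG-/- values being the higher by 0.39 on average (two-sided exact permutation p = 0.1). Of 8 members 1 was so placed on the higher side and 0 on the lower, where 2.65% and 1.93% of all genes were. All 6 values lay within 0.63 of each other, and their mean was at the 7.5 percentile of all probe sets. By title 0 members were placed on either side, where 2.76% and 3.17% of all genes were.

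Tryptases are tetrameric proteases of the granule. Tpsb2 was at 5.01, 4.46 and 5.08 in WT replicates 1, 2 and 3 and at 5.71, 4.55 and 5.95 in RAG-/- replicates 1, 2 and 3. Every one of these values was below the line, and the difference was 0.55 (exact permutation p = 0.3). Its other probe set was below the line on all arrays too, between 4.30 and 5.82, and differed by 0.16. Tpsab1, which the RefSeq annotation of the C57BL/6J genome lists as a transcribed pseudogene, was at 5.93, 5.92 and 7.10 in WT replicates 1, 2 and 3 and at 6.01, 5.48 and 6.0 in RAG-/- replicates 1, 2 and 3. It rose above the line in WT replicate 3 and on no other array. Its difference was -0.49 (SE 0.43, 95% interval -1.47 to 0.50; limma adjusted p = 1), and -0.09 without WT replicate 3. Tpsab1 and Tpsb2 are neighbours on chromosome 17 and similar in sequence, so their probe sets may share signal.

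The IgE receptor genes were also at background. Fcer1a, whose product binds IgE, was at 5.10, 4.28 and 5.23 in WT replicates 1, 2 and 3 and at 5.27, 4.76 and 5.74 in RAG-/- replicates 1, 2 and 3. All 6 values were below the line, and the difference was 0.38 (exact permutation p = 0.4). Ms4a2, the signal-amplifying beta chain of that receptor, was at 6.30, 5.07 and 5.74 in WT replicates 1, 2 and 3 and at 5.21, 4.44 and 4.49 in RAG-/- replicates 1, 2 and 3. It passed the line in WT replicate 1 alone, by less than 0.1. The difference was -0.99 (exact permutation p = 0.2), but the gene's other probe set, below the line on every array, differed by 0.73 in the opposite direction. Both receptor genes, like Mcpt4 and Tpsb2, failed the filter on dim probe sets, and a difference among such values cannot be read as a change of the transcript.

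Kit stood apart from the other members. It encodes the receptor tyrosine kinase that mast cells need, and it is also made by melanocytes, haematopoietic progenitors and several kinds of neuron, including interneurons of the cerebellar molecular layer. Kit was at 10, 10.04 and 8.06 in WT replicates 1, 2 and 3 and at 8.49, 9.82 and 7.85 in RAG-/- replicates 1, 2 and 3. It was above the line on all 6 arrays, brightest in WT replicate 1 and both arrays of pair 2, and lowest in pair 3. The genotypes overlapped, with 9.36 ± 1.13 in WT and 8.72 ± 1.01 in RAG-/- (SD, n = 3). The difference was -0.64 (SE 0.66, 95% interval -2.17 to 0.88; limma adjusted p = 1). It was -0.21 without RAG-/- replicate 3, -0.33 without WT replicate 1, -0.31 without WT replicate 2, -1.19 without RAG-/- replicate 2 and -1.30 without WT replicate 3. It came mostly from pair 1, where Kit differed by -1.50, against -0.22 and -0.21 in pairs 2 and 3. Kit's other probe set ran from 5.46 to 6.54, was above the line on 2 arrays and did not show this pattern.

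The sequence around the transcription start is shown for Cpa3 and Cma1, which were both low in pair 2, and for Kit, which was high there. The windows run from 250 bases before to 50 after the start, from RefSeq on GRCm38.p6, and 6 of 8 members matched by symbol. Capitals mark GATAA or its reverse complement, the core of the element bound by GATA factors, which mast cells use. The Cpa3 window is chr3:20242132-20242431, the Cma1 window chr14:55944626-55944925, both on the minus strand, and the Kit window, the first of 2 that start 4 bases apart, is chr5:75574737-75575036 on the plus strand.
Cpa3: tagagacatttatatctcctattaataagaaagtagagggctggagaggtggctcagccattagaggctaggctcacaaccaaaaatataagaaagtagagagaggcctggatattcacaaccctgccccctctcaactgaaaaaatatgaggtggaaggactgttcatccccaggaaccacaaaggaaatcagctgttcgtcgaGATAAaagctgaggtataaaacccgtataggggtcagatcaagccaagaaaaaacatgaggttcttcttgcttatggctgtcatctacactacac
Cma1: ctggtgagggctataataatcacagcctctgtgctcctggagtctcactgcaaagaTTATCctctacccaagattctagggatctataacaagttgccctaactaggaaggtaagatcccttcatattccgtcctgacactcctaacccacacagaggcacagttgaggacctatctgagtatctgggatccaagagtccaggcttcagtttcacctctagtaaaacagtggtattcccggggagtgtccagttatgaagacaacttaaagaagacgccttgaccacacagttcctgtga
Kit: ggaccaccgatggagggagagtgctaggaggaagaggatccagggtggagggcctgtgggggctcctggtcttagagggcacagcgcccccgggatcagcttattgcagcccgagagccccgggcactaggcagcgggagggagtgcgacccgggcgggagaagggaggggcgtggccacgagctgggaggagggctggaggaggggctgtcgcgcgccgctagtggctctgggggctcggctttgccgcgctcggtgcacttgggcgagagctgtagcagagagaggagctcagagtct

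GATAA occurred once each in the windows of Cpa3, Cma1, Mcpt4 and Fcer1a and 3 times in that of Ms4a2, and 0 times in that of Kit. On either strand it was present in 25.4% of 32851 windows of this length. The TATAAA motif occurred 2 times in the Cpa3 window, 1 time each in those of Mcpt4 and Fcer1a and 0 times in those of Cma1, Ms4a2 and Kit, against 13.6% of all windows that hold it. G and C made up 69.0% of the Kit window, 43.3% of that of Cpa3 and 47.0% of that of Cma1, where the median of all windows was 52.7%. A match of letters is a description and does not show that a factor binds there.

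RAG-/- and WT choroid plexus could not be told apart in any mast cell gene. By description 0 of the 4 members that passed the filter were past an adjusted p of 0.05 (limma, Benjamini-Hochberg over 27022 probe sets), where 0% of all probe sets were, and 192 probe sets had an unadjusted p under 0.05. With the pair as a block it was 0 of 4 again, and 0% of all probe sets. With no filter 0 of 8 members passed. Of the 8 members, 5 were higher and 3 lower in RAG-/-, with a median difference of 0.105, against a median of -0.002 over all 18193 genes, of which 50.2% were lower.

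**Figure D2:**
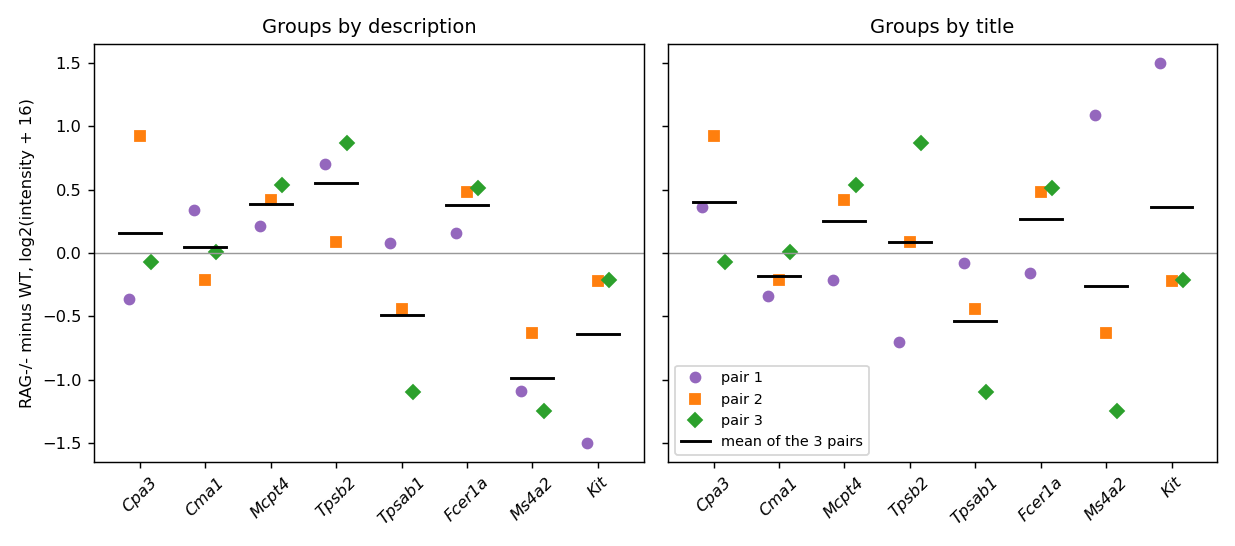
Differences, RAG-/- minus WT, of each mast cell gene on the log2(intensity + 16) scale, within each pair (symbols) and as the mean of the 3 pairs (black lines), with groups by description on the left and by title on the right. Only pair 1 changes sign between the panels, and Kit moves from -0.64 to 0.36 with it.

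By title 0 of 4 members passed either, where 0% of all probe sets were called, and with the pair as a block 0 of 4, where 0.0037% were. Kit then differed by 0.36 (SE 0.69, 95% interval -1.23 to 1.94), the opposite direction to that by description, and Cma1 by -0.18 (SE 0.56). Cpa3 differed by 0.40 (SE 0.49, 95% interval -0.73 to 1.54), and Tpsab1 by -0.54 (SE 0.42), both in the same direction as by description. Again 5 members were higher and 3 lower, not the same ones, with a median of 0.169, against -0.019 over all genes. The intervals allow changes of more than 2-fold in either direction for Cpa3 and Cma1 by description, so equal levels are not shown.

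Across arrays the members did not all move together. Cpa3 had a Pearson r of 0.75 with Cma1, 0.841 with Fcer1a and 0.643 with Tpsb2. With Mcpt4, Ms4a2 and Tpsab1 it had 0.556, 0.422 and 0.357. Among 7502 genes past the filter with a range of at least 1, Cma1 was 512th most like Cpa3 and Tpsab1 was 2513th. Cpa3 was 793rd most like Cma1. Cma1 had an r of 0.731 with Tpsb2 and 0.655 with Fcer1a. Kit had an r of -0.522 with Cpa3, -0.453 with Cma1, -0.808 with Tpsb2 and -0.813 with Fcer1a. Cpa3 and Cma1 shared their low values in pair 2, and Tpsb2 and Fcer1a, though below background, were also lowest in pair 2. Kit ran the other way, with its high values in pair 2 and WT replicate 1. The mean of the 4 members past the filter was matched best, over 6 arrays and among 7499 genes with a range of at least 1, by C1qtnf2, Cd300lb, Ctla2b, Plac8, Kcnk5, Retnla, Cyp2f2, Degs2, Csf3r and Ccr1, with Pearson r between 0.963 and 0.984. These genes were highest in WT replicate 1. All 4 are part of that mean, so their own r is partly built in, and it was 0.776 for Cma1, 0.715 for Cpa3, 0.335 for Tpsab1 and 0.006 for Kit. Of the 4 members that are not part of it, Ms4a2 had an r of 0.902 and the others 0.150 to 0.311, nearly all from values below background. The arrays are not independent, being paired, and with so few of them a high r is easily met. Tpsab1, which exceeded the line on 1 array, reached 0.993 with the protease gene Furin.

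Profiles of single members were compared after their values had been seen. Among 7502 genes, those most like Cpa3 were Ripply3, Themis2, Gm9895, Ctsg, Cabyr, Tapbpl, Csf1r, Pnkd, Prss55 and Fyb. Their r lay between 0.977 and 0.991, and Ctsg was 4th with an r of 0.988. Ctsg encodes cathepsin G, a granule protease of neutrophils and mast cells, and lies in the chymase gene cluster of chromosome 14 with Cma1 and Mcpt4. It was at 7.65, 4.40 and 6.85 in WT replicates 1, 2 and 3 and at 6.60, 5.86 and 6.90 in RAG-/- replicates 1, 2 and 3, above the line on the same 4 arrays as Cpa3. Csf1r, the receptor that macrophages depend on, followed Cpa3 with an r of 0.987. It is 1 of 10 macrophage and microglia markers, and not all of them had this pattern. Cd68, Aif1, Mrc1, Cd163 and Lyz2 also had their lowest pair mean in pair 2. Cx3cr1, P2ry12, Tmem119 and C1qa had theirs in pair 3, at 7.31, 5.72, 7.61 and 7.59, where Cpa3 was above the line. Cma1 was matched best by Fbln2, a matrix protein gene, with an r of 0.994. The melanocyte gene Dct was 46th with an r of 0.942. Alox5ap and Ltc4s, from the list of other mast cell genes given below, were 52nd and 56th, at 0.938 and 0.936. Dct is 1 of 7 melanocyte markers. Tyrp1, Tyr, Pmel and Mlana also had their lowest pair mean in pair 2. Sox10 and Mc1r did not, at 7.86 and 5.5 there against 7.58 and 5.19 in pair 1.

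The genes most like Kit were Klhl23, Slc1a3, Proser2, Dgkz, Sbk1, Prkce, Gdf10, P2rx4, Gng13 and Arhgef33, with an r between 0.972 and 0.990. Slc1a3 encodes the glutamate transporter of astrocytes and Bergmann glia, and Gdf10 is a marker of Bergmann glia of the cerebellum. Kitl, which encodes the Kit ligand, was 27th of 7502 with an r of 0.959. It was at 10.82, 11.06 and 9.24 in WT replicates 1, 2 and 3 and at 9.79, 10.34 and 9.41 in RAG-/- replicates 1, 2 and 3, high and low on the same arrays as Kit. Of the cerebellar neuron genes, Pvalb had an r of 0.968, Calb1 of 0.966 and Pcp2 of 0.935 with Kit. They were picked from the 8 neuron markers after values were seen, and others of that list differed from Kit in pair 1. There, RAG-/- minus WT was -1.50 for Kit, -1.59 for Pvalb, -1.52 for Calb1 and -2.22 for Pcp2. It was -0.12 for Snap25 and -0.25 for Rbfox3, and 0.52 for Gad1, 0.21 for Syt1 and 0.85 for Slc17a7. Pcp2, a gene of Purkinje cells, was at 12.42, 12.55 and 7.15 in WT replicates 1, 2 and 3 and at 10.19, 11.88 and 8.77 in RAG-/- replicates 1, 2 and 3. The 8 neuron markers had a summed intensity of 11900 to 59700 in WT arrays and 8800 to 63700 in RAG-/- arrays, with 7 of 8 above the line on all arrays. Their part in the Kit values was not tested.

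**Figure D3:**
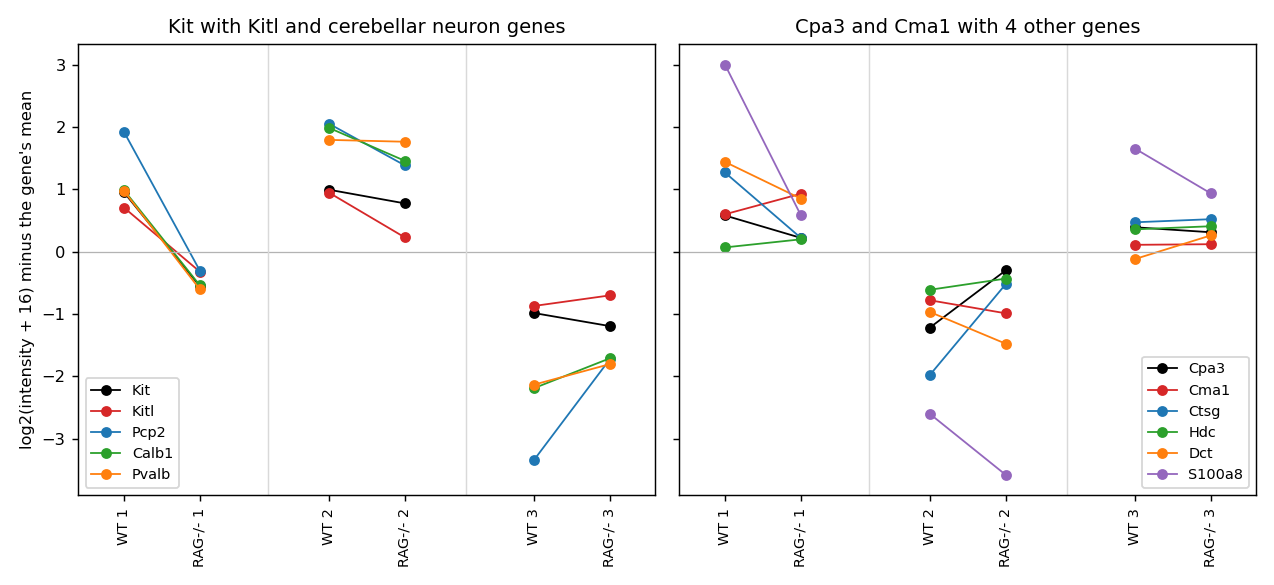
Log2(intensity + 16) of each gene minus its own mean over the 6 arrays, with the arrays of a pair joined by a line. On the left, Kit, Kitl, Pcp2, Calb1 and Pvalb are high in WT replicate 1 and pair 2 and low in pair 3; on the right, Cpa3, Cma1, Ctsg, Hdc, Dct and S100a8 are low in pair 2.

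Other genes known from mast cells were followed as a list of 45, of which 37 were measured. Of these, 26 were above the line on 1 array or more, 13 on all arrays and 11 on none. Of the 21 that passed the filter, 0 passed the threshold by description or by title. By description 14 were higher and 23 lower, with a median of -0.25, and by title 21 were higher and 16 lower, with a median of 0.08, so that the direction turned with the labels of pair 1. The mucosal mast cell proteases Mcpt1 and Mcpt2 and the mast cell receptor gene Mrgprb1 were below the line on all arrays, Mcpt1 between 4.74 and 6.23, Mcpt2 between 4.42 and 6.10 and Mrgprb1 between 4.14 and 5.36.

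Hdc encodes histidine decarboxylase, which makes histamine in mast cells, basophils and hypothalamic neurons. Its brighter probe set was at 10.92, 10.24 and 11.21 in WT replicates 1, 2 and 3 and at 11.05, 10.42 and 11.26 in RAG-/- replicates 1, 2 and 3. Hdc was lowest in pair 2, as Cpa3 and Cma1 were, and differed by 0.12 between the genotypes. Srgn, the core protein of the proteoglycan that holds granule proteases in mast cells and other leukocytes, ran from 8.75 to 11.58 and was highest in WT replicate 1. Fcer1g, the gamma chain that the IgE receptor shares with Fc receptors of macrophages, ran from 7.17 to 8.47. The transcription factor Mitf, active in mast cells, melanocytes and pigment epithelium, ran from 11.30 to 12.82.

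Gata1 and Gata2, factors of the mast cell and erythroid lineages, were above the line on 5 and 6 arrays. Gata2 was at 9.83 in RAG-/- replicate 2 and between 8.02 and 8.50 elsewhere. Slc18a2, the vesicular monoamine transporter of mast cells and monoamine neurons, was at 12.44 in RAG-/- replicate 2 and between 5.53 and 6.20 elsewhere, under the line on those 5 arrays. Rab27b, another gene of the list, was at 10.90 in RAG-/- replicate 2 and between 7.28 and 8.46 elsewhere. The source of these high values in RAG-/- replicate 2 was not tested. Hpgds, the haematopoietic prostaglandin D synthase, was above the line on 2 arrays, both of pair 1.

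Neutrophils and melanocytes share genes with mast cells, and the mean levels of their markers were lowest in pair 2 as well. Differences between pairs held 15.3% (Elane) to 89.5% (Prtn3) of the sum of squares of single neutrophil markers. For melanocyte markers it was 31.8% (Sox10) to 93.8% (Dct), where the median over all genes past the filter was 64%. Neutrophil markers, 9 measured of 10, had a mean log2 value of 10.41, 8.75, 8.75 and 8.58 on the arrays of pairs 1 and 3 and of 6.85 and 6.23 on those of pair 2, and the mast cell genes had means of 6.05 to 6.41 and of 5.64 and 5.69. All 9 neutrophil markers were above the line on 1 array or more. Their summed intensity was 1120 to 26100 in WT arrays, the highest in WT replicate 1, and 746 to 6460 in RAG-/- arrays. All 9 had lower means in RAG-/- by description, with a median of -0.72, while by title 8 were higher and 1 lower, with a median of 0.30, and 0 passed the threshold in either reading (limma). Melanocyte markers, 7 measured of 7, were summed to 882 to 3090 in WT arrays and 877 to 2130 in RAG-/- arrays, with Mc1r at background throughout and the lowest sums in pair 2. Their part in the mast cell values was not tested.

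Basophils share the IgE receptor with mast cells. Of 4 measured basophil markers, 2 were above the line on 1 array or more, and their summed intensity was 133 to 221 in WT arrays and 86.5 to 143 in RAG-/- arrays. Mcpt8, the basophil protease, was at 6.60 in WT replicate 1 and at or below 6.16 elsewhere. Fibroblast and meningeal genes, which mark the stroma in which mast cells lie, were above the line on 1 array or more in 15 of 15, with summed intensities of 70100 to 98400 in WT and 29500 to 72500 in RAG-/-. By description all 15 had lower means in RAG-/-, with a median difference of -1.0 on the log2 scale, and by title 12 were lower and 3 higher, with a median of -0.28. In limma 0 passed the threshold in either reading, and their part in the mast cell values was not tested. In whole tissue, fewer cells of a type and less RNA per cell cannot be told apart.

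**Figure D4:**
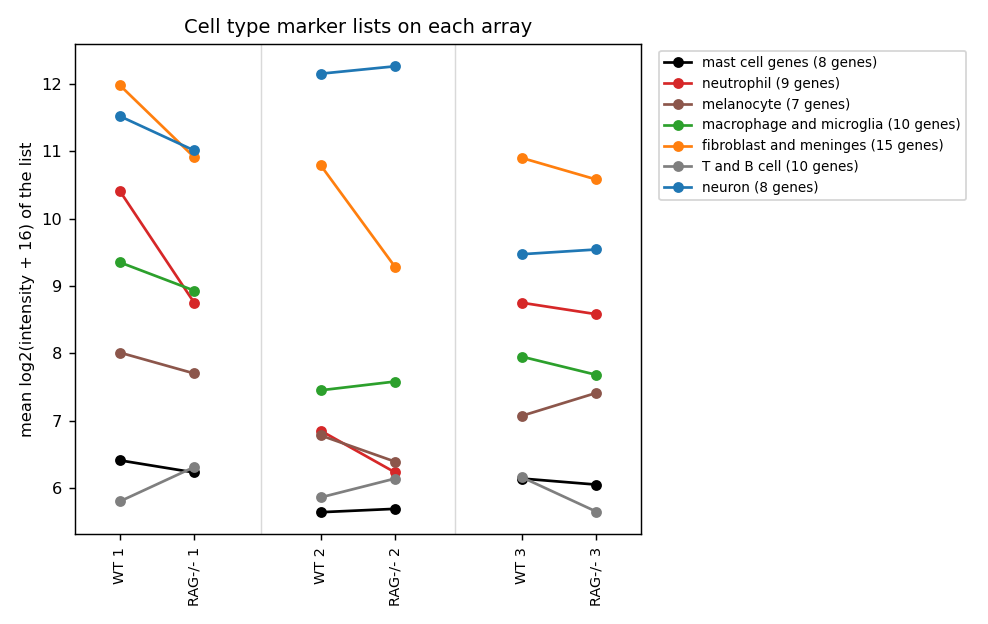
Mean log2(intensity + 16) of each cell type marker list on the 6 arrays, with the arrays of a pair joined by a line. Heights of different lists are not comparable, since each probe set has its own brightness. The mast cell and neutrophil means are lowest in pair 2, at 5.64 and 5.69 and at 6.85 and 6.23. So are those of the melanocyte list, at 6.78 and 6.39, and of the macrophage and microglia list, at 7.45 and 7.58.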

How the data were processed

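Total RNA of 6 preparations was measured on single-colour arrays, and the deposited table holds 1 linear intensity per probe set and array. The software and normalization behind it are not stated per the labels. Each array's deposited intensities had a mean of 500 once 2% of probe sets at each end were set aside, which shows a scaling of each array to one target. Of 45101 probe sets, 64 controls were left out. Values were log2(intensity + 16), which understates fold changes of dim genes, and were quantile normalized because the 75th percentiles differed by 0.232, over the limit of 0.2. Probe sets in the lowest 40% of mean value were left out of the test, which left 27022. The table had 0 value columns without a sample.

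In R 4.3.3, limma 3.58.1 (lmFit, then eBayes with its trend option) gave two-sided tests of the differences, adjusted by Benjamini-Hochberg with a threshold of 0.05, after a check on simulated data. Exact permutation tests over arrays were also computed, unadjusted, for 137 genes in each reading of the labels: the members, Rag1, Rag2 and every gene of the marker lists. Arrays that share a title code deviated together from their group means (r of 0.29, 0.39 and 0.58), so the pair was used as a block beside the main fit. Members, lists and tests were chosen with earlier results of these data known. The text names all members, a fixed set of other mast cell genes and the 10 genes most like the members' mean. Profiles of single members, with the other genes named from them, were chosen after values were seen. So was the use of single genes on their own, among them Pcp2, Calb1, Pvalb, Gad1, Syt1, Slc17a7, Snap25, Rbfox3, Rab27b, Dct, S100a8 and Mcpt8. Of the 45 other mast cell genes, Il1rl1 and 7 more had no probe set of a single symbol.

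Alternatives were the grouping by title, the block, the values as deposited, a common median, pseudocounts of 1 and 64, filters at 0% and 20%, array weights, leaving out each array or pair, other probe sets and another background line. Leaving out single arrays with groups by title was added after the data were seen.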

Additional observations from a re-analysis of the deposited data

How the results depend on the processing

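The count of mast cell genes past the threshold was 0 under every alternative run, by description and by title. The count of probe sets was 0 by description and 1 by title with the replicate block, Pttg1. It lay between 0 and 4 without single arrays (4 without RAG-/- replicate 2, Xist and 3 with no gene name) and was 2 without pair 2. Without RAG-/- replicate 2, Xist was lower in RAG-/-, at -4.78. The 3 probe sets with no gene name were higher there, by up to 7.89. Both probe sets past the threshold without pair 2 were among these 3, and were again higher in RAG-/-. Whether the arrays differed in sex, which the labels do not give, was not tested. Of 27022 probe sets tested, 192 had an unadjusted p under 0.05 by description in limma, where 1351 would be expected if none differed. None of the probe sets past the threshold was a member; these were named after their values were seen. The replicate block changed no call of a member. The median difference of 0.10 lay between -0.32 (without WT replicate 2) and 0.43 without single arrays, -0.16 without RAG-/- replicate 1 and -0.02 without pair 2. By title, with or without the replicate block, Cma1 turned to -0.18 and Kit to 0.36, and Cma1 was -0.10 without pair 1. Cpa3 was -0.22 without pair 2 and ran from -0.40 to 0.50 without single arrays, Cma1 from -0.41 to 0.55 and Kit from -1.30 to -0.21. With array weights Kit was -1.11. Ms4a2 was 0.73 at its other probe set. With the 40th percentile of all probe sets as background line, RAG-/- replicate 2 had 2 members above it in place of 1 and WT replicate 3 had 4 in place of 3, 17 of 48 values in place of 15. The cause of these changes was not tested. Signal over background limits what can be said of Mcpt4, Tpsb2, Fcer1a and Ms4a2, whose differences grew with a pseudocount of 1, to 1.0, 0.90, 0.83 and -1.80.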
